A study of Homo sapiens with 18 samples.

Results

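Untreated SH-SY5Y cells collected at 48 h were compared with untreated SH-SY5Y cells collected at 24 h, on 3 arrays each, which makes 6 of the 18 arrays of the series. The arrays were taken by their titles, which name the control cells and the time; the comparison itself was picked with earlier results of these data known. Untreated cells at 3 h (3 arrays) were added to ask which changes between 3 and 24 h had returned by 48 h. The rest of the series holds cells of the same line given sarin at 5 ppm for 3, 24 or 48 h, with 3 arrays per time. All 9 arrays used here hold cells that received no sarin. RNA was hybridised to Affymetrix oligonucleotide arrays, and each value is a signal intensity on a linear scale. Log2 changes are differences of group means of log2(signal + 16), given as 48 h minus 24 h with their standard error (SE, n = 3 arrays per time); for genes of low signal the added 16 shrinks them. SH-SY5Y is an established line, so all groups are 1 line. The labels name 6 flasks per group beside 3 arrays and do not tie flasks to arrays, so the p-values reflect differences among arrays that may be only technical. When the flasks were seeded or fed is not given in the sources used here.

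SH-SY5Y cells descend from a human neuroblastoma, a tumour of the sympathetic nervous lineage. Noradrenergic cells of this lineage make noradrenaline with dopamine β-hydroxylase, pack it with granins and neuropeptides into dense-core vesicles, and take it back up through the transporter SLC6A2. Transcription factors of the HAND, GATA and TFAP2 families set up this programme, and in dividing cells it runs beside the cell cycle genes.

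The marker genes of the line were present on the untreated arrays. Of 10 noradrenergic neuroblastoma markers read, 9 (PHOX2A, HAND2, GATA2, GATA3, ISL1, DBH, CHGA, CHGB and RET) lay above background on all 9 arrays, and TH, which encodes tyrosine hydroxylase, lay at background. The background level of an array was the 90th percentile of its 27 bacterial probe sets that match no RNA in the sample. The summed signal of the noradrenergic markers was 92004 to 101742 at 24 h and 81336 to 83314 at 48 h. Without CHGA and CHGB the sum of the other 8 was 65967 to 68985 at 24 h and 67951 to 68575 at 48 h, which overlap, with 1 marker lower (DBH) and 1 higher (PHOX2A) on all arrays. Markers of substrate-adherent, mesenchymal neuroblastoma cells (9 of 10 above background) summed to 29901 to 32825 at 24 h and 33736 to 48429 at 48 h. Most of these sums was VIM, at 22203 to 25186 and 25637 to 40538 (limma adjusted p = 0.697). Fibroblast markers (5 of 6 above background, LUM the exception) summed to 5580 to 6710 and 7187 to 7979. Of these sums COL3A1 alone gave 2658 to 3459 and 3928 to 4791 (limma adjusted p = 0.28). Both marker sets hold COL1A1 and COL1A2. Neither the mesenchymal nor the fibroblast sums overlap between 24 and 48 h, and the part of cell mixture in the results below was not tested. Over the 34 tested genes of a wider matrix and substrate-adherent list the median log2 change was 0.02, beside -0.03 over all tested genes. In bulk RNA, fewer cells of a type and less RNA per cell cannot be told apart. Glial markers (1 of 7 above background, with SOX10 and S100B at background) summed to 831 to 1044 at 24 h and 708 to 924 at 48 h. Immune and endothelial markers (2 of 8 above background, with CD14, LYZ and CDH5 at background) summed to 1080 to 1775 and 1268 to 1502.

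The arrays of the 3 times also differed in their overall signal. Their trimmed means were equal by construction, at 800.2 to 800.3, but the median signal was 310.2 to 339.2 at 3 h, 397 to 413.9 at 24 h and 347 to 373 at 48 h. The ACTB 3′ over 5′ signal ratio, which rises when RNA is degraded, was 0.79 to 1.14 at 3 h, 1.46 to 1.5 at 24 h and 1.07 to 1.44 at 48 h. The GAPDH ratio overlapped at the 3 times, at 0.696 to 0.999, 0.811 to 0.941 and 0.703 to 0.955. Replicate 3 at 3 h stood apart, with a highest signal of 162749 where no other of the 9 arrays passed 77422. Across probe sets, arrays correlated at r of 0.946 to 0.953 within 24 h, 0.955 to 0.974 within 48 h and 0.931 to 0.95 between these times. The part of these array measures in the results was not tested.

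Few genes passed the test in the second culture interval. Of 7178 genes tested, 11 had an adjusted p under 0.05 in limma's moderated test for 48 h against 24 h (0.153%), 4 higher (0.0557%) and 7 lower (0.0975%) at 48 h. The 11 genes were CHGB, SLC6A2, PTPRO, FAM30A, DBT, SH2D2A and SLC35E1, which fell, and C7, FNDC4, CDCA8 and KCTD12, which rose. Their 3 arrays at 24 h and 3 arrays at 48 h did not overlap, which also held for 1598 genes in all (22.3%), and 9 of the 11 changed at least 2-fold. Unadjusted p-values under 0.05 were found for 738 genes (10.3%), where 359 would be expected by chance. The first interval, 24 h against 3 h, had 251 genes past the threshold (3.5%), 158 higher (2.2%) and 93 lower (1.3%). The median log2 change of all tested genes was -0.03 in the second interval, and the central 90% of genes lay between -0.55 and 0.44. The split of calls depended on scaling, since centring each array on its median moved the median of all genes to 0.12 and gave 5 genes higher and 2 lower, and 63 higher and 1062 lower in the first interval.

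**Figure D1:**
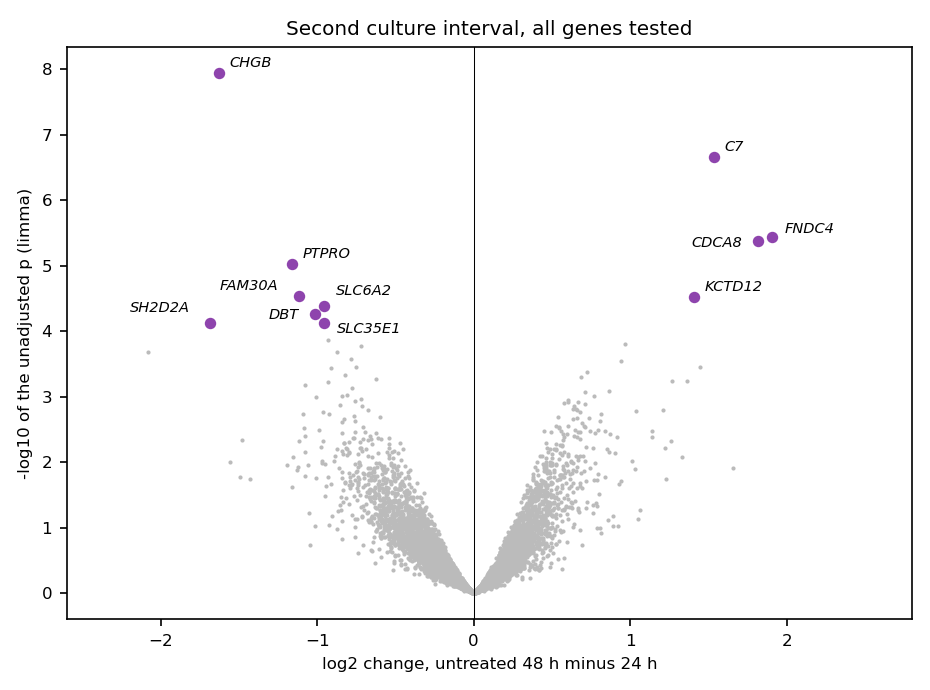
Each point is 1 of the 7178 genes tested, with its log2 change from 24 to 48 h in untreated cells on the horizontal axis and -log10 of its unadjusted limma p on the vertical axis. The 11 named purple points have an adjusted p under 0.05, 7 of them to the left of 0 (lower at 48 h) and 4 to the right.

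The gene with the smallest p was CHGB, which encodes chromogranin B, an acidic protein of dense-core secretory vesicles. Its signal was 3786, 3860 and 3482 on the 3 h arrays, 12238, 12200 and 10566 at 24 h, and 3655, 3795 and 3831 at 48 h. The 24 h arrays were thus all far above the rest, and the 48 h arrays lay within the range of the 3 h arrays. CHGB fell 3.09-fold between 24 and 48 h (log2 change -1.63 ± 0.14, adjusted p = 8.14e-05, limma) after it had risen 3.13-fold between 3 and 24 h (adjusted p = 6.91e-05). The net log2 change from 3 to 48 h was 0.02 ± 0.14, with a limma adjusted p of 0.965.

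SLC6A2, the noradrenaline transporter, fell as well. Its signal was 3668, 4165 and 4207 at 24 h and 1867, 2233 and 2080 at 48 h, and had been 2080, 2981 and 2874 at 3 h. The 24 h arrays were above all others, while the 48 h and 3 h arrays overlapped. The log2 change was -0.96 ± 0.16 (adjusted p = 0.0367, limma), a 1.94-fold drop. Its 6 other probe sets had changes of -0.55 to -0.90. SLC6A2 was the 1 gene of the 11 that had not passed the threshold in the first interval, where its change of 0.61 ± 0.16 had an adjusted p of 0.0522.

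Some other genes of the secretory and noradrenergic programme had lower 48 h signals without passing the test. CHGA, which encodes chromogranin A, had signals of 23062, 14833 and 15471 at 24 h and 10928, 11249 and 8931 at 48 h, a change of -0.76 ± 0.20 (limma adjusted p = 0.257). NPY, the gene of neuropeptide Y, had 14152, 12438 and 12958 against 8831, 8190 and 7723 (-0.68 ± 0.17, adjusted p = 0.226). The arrays of both genes were all lower at 48 h. DBH, the gene of dopamine β-hydroxylase, which makes noradrenaline, was at 11781 ± 234 (SD, n = 3) at 24 h and 8105 ± 463 at 48 h, a change of -0.54 ± 0.16 with an adjusted p of 0.292. Among the transcription factors, TFAP2B had a change of -0.87 ± 0.18 (adjusted p = 0.0939) after a called rise of 0.98 ± 0.18 in the first interval. HAND1 had a mean signal of 5569 ± 1507 at 3 h, 4827 ± 1298 at 24 h and 2466 ± 64.1 at 48 h, with a second interval change of -0.93 ± 0.21 and an adjusted p of 0.155. PHOX2A had the opposite sign, at 0.59 ± 0.17 (adjusted p = 0.28), and the receptor tyrosine kinase gene RET was at -0.01 ± 0.18 with overlapping arrays. HAND2-AS1, a non-coding RNA gene beside HAND2, was nearest to the threshold among the genes outside it, at -0.93 ± 0.18 and an adjusted p of 0.0804. Over the whole noradrenergic list, 1 of 22 tested genes was called, the median change was -0.03, and 8 genes were lower and 2 higher with arrays that did not overlap. Over all tested genes such non-overlap was 12.7% lower and 9.58% higher. Over 14 granin and neuropeptide genes, 1 was called, and the median was -0.07. Of these 14, 4 were lower and 2 higher with arrays that did not overlap. Both medians were positive with arrays centred on the median, at 0.12 and 0.08, where the median of all tested genes was 0.12. STMN2, which encodes a microtubule regulator of growing axons and stood in the granin list, went the other way, from 9910, 9052 and 7974 at 24 h to 13090, 16696 and 16241 at 48 h (0.77 ± 0.19, adjusted p = 0.199). CPE, also in the granin list, went from 1396, 1810 and 1749 to 3084, 2168 and 2220 (0.58 ± 0.20, limma adjusted p = 0.367). Its other probe set gave 0.08.

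The 4 genes that rose had all fallen in the first interval. C7 encodes the seventh component of complement, a protein of the membrane attack complex. Its signal was 2248, 1780 and 2126 at 3 h, 1020, 790 and 899 at 24 h, and 2392, 2997 and 2548 at 48 h. The 24 h arrays were the lowest and the 48 h arrays the highest of the 3 times, with no overlap. C7 rose 2.9-fold in the second interval (log2 change 1.54 ± 0.16, adjusted p = 7.78e-04, limma). FNDC4, a secreted protein gene with a fibronectin type III domain, went from 453, 519 and 578 at 3 h to 134, 147 and 188 at 24 h and back to 524, 772 and 602 at 48 h. Of its 24 h arrays, 2 of 3 were above background, so the rise of 1.91 ± 0.26 (adjusted p = 0.00748) starts from a level close to background.

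CDCA8 encodes borealin, a subunit of the chromosomal passenger complex that steers chromosome segregation in mitosis. Its signal was 1616, 2165 and 1254 at 3 h, 403, 259 and 514 at 24 h, and 1323, 1466 and 1323 at 48 h. The 24 h arrays were all below the other 6, and the 48 h arrays lay within the 3 h range. The rise was 3.52-fold (1.81 ± 0.25, adjusted p = 0.00748, limma). KCTD12 encodes an auxiliary subunit of GABA-B receptors. It had 2684, 4187 and 3170 at 3 h, 758, 789 and 534 at 24 h, and 1314, 2281 and 2092 at 48 h. The 48 h arrays lay between the other times and overlapped neither. The second interval rise was 1.41 ± 0.23 (adjusted p = 0.0307), and a second probe set of the gene gave 1.39. The first interval had lowered KCTD12 by more, at -2.24 ± 0.23, so 63% of that change was undone.

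**Figure D2:**
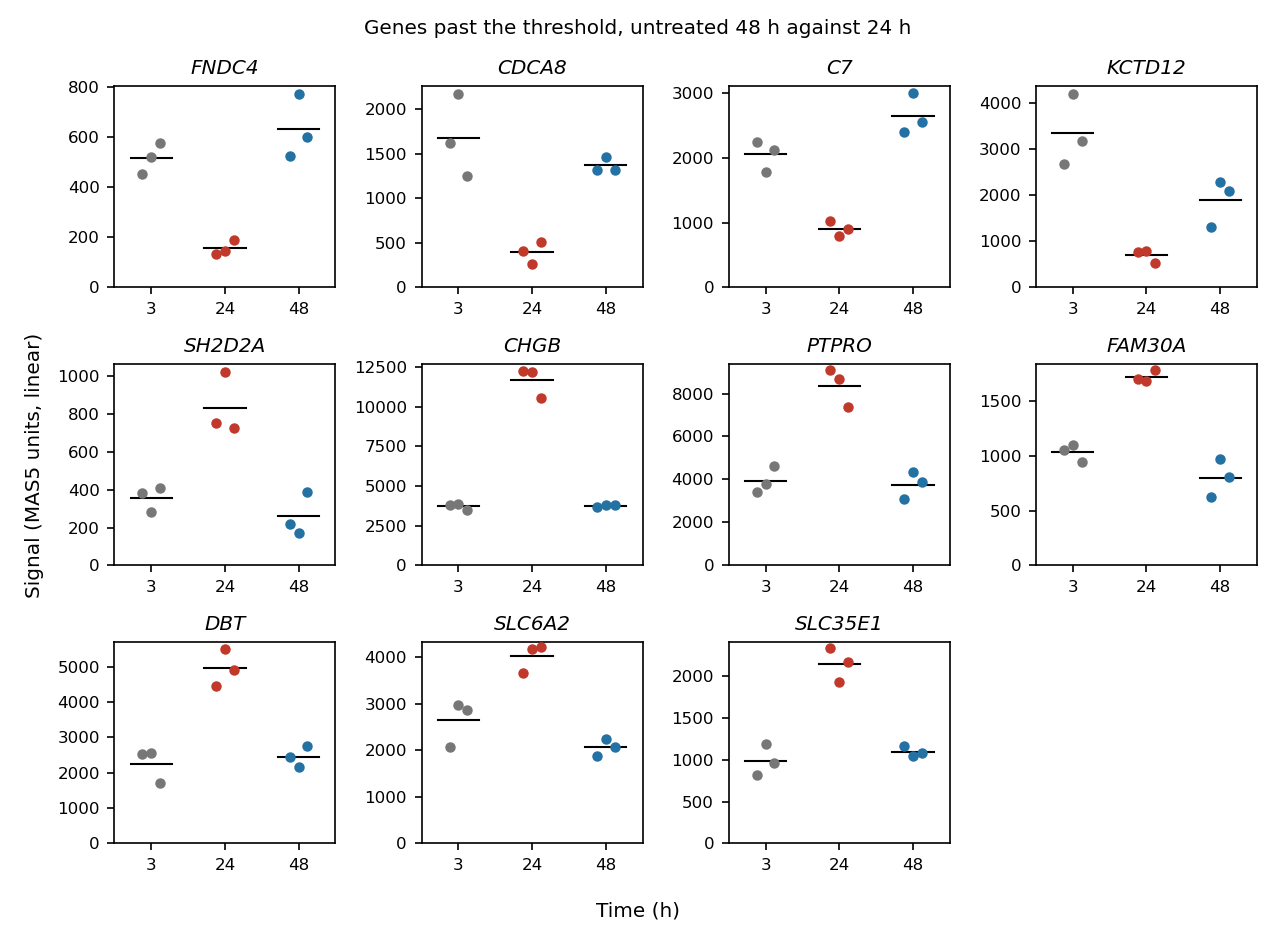
Signal on a linear scale (vertical axes, which start at 0) of the 11 genes past the threshold for 48 h against 24 h, on each of the 9 untreated arrays, by time in h; points are arrays and lines are means of 3. The 24 h arrays are the lowest in the first 4 panels and the highest in the other 7.

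The promoters of the 4 genes that fell and then rose together are shown because these genes moved the same way in both intervals. Each line is the 250 bases before the RefSeq start on the gene's own strand, in assembly GRCh38.p14. C7 lies at chr5:40909247-40909496 on the plus strand, FNDC4 at chr2:27495201-27495450 on the minus strand, CDCA8 at chr1:37692266-37692515 on the plus strand, and KCTD12 at chr13:76886406-76886655 on the minus strand. Capitals mark matches on either strand to 6 motifs. They are the GC box, spelled GGGCGG, the CCAAT box, the cell cycle homology region known from mitotic promoters, spelled TTTGAA, and the cyclic AMP response element, spelled TGACGTCA. The E-box was searched as CACGTG and the TATA box as TATAAA.
C7: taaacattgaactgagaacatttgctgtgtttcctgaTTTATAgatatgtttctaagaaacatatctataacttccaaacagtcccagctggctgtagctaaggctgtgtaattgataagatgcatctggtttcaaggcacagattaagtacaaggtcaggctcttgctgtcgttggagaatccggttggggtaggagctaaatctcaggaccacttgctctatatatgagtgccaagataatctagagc
FNDC4: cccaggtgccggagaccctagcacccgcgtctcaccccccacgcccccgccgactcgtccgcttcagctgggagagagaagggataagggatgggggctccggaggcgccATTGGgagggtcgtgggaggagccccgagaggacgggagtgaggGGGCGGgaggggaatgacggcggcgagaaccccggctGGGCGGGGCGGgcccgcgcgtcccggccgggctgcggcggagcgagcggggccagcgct
CDCA8: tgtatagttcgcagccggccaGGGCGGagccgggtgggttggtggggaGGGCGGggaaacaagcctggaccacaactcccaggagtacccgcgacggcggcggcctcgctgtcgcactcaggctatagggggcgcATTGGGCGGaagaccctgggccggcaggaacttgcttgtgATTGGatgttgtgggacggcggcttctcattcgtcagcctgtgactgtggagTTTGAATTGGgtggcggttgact
KCTD12: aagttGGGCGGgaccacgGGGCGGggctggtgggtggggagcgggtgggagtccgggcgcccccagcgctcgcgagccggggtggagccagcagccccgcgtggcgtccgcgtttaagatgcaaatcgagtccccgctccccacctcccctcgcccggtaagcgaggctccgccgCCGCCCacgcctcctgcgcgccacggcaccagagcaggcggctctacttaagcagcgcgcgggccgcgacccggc
No motif was common to all 4. CDCA8 held 3 GC boxes, 3 CCAAT boxes and 1 cell cycle homology region; 1 GC box overlaps a CCAAT box, and the homology region overlaps another. FNDC4 held 3 GC boxes, of which a pair overlap, and 1 CCAAT box. KCTD12 held 3 GC boxes. C7 held 1 match to the TATA box, on the opposite strand, and its promoter had a GC content of 40.8%, against 63.6% to 76% in the others. Of 35116 RefSeq promoters of the same length, 42.6% held the GC box, 32% the CCAAT box, 13.3% the cell cycle homology region, 10.7% the TATA box, 6.34% the E-box and 1.65% the cyclic AMP response element. A match is a description of the letters and not a binding site.

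Apart from CHGB and SLC6A2, 5 genes fell. PTPRO, a receptor-type tyrosine phosphatase gene, went from 9074, 8659 and 7375 at 24 h to 3071, 4340 and 3864 at 48 h, close to its 3407, 3795 and 4615 at 3 h. That is a change of -1.16 ± 0.17 (adjusted p = 0.0134, limma), and a second probe set gave -0.50. FAM30A, a long non-coding RNA gene, was at 1720 ± 50.1 at 24 h and 798 ± 173 at 48 h (-1.11 ± 0.18, adjusted p = 0.0307). SH2D2A encodes an adapter protein best known from T cells. It had 752, 1021 and 726 at 24 h and 219, 170 and 389 at 48 h, a 3.22-fold drop (-1.69 ± 0.31, adjusted p = 0.0486). DBT encodes the E2 subunit of the branched-chain α-ketoacid dehydrogenase, and SLC35E1 a member of a solute carrier family. Their probe sets are of a type that can bind related transcripts. DBT dropped by 1.02 ± 0.18 (adjusted p = 0.0441), but 2 of its 3 other probe sets had the opposite sign. SLC35E1 dropped by 0.95 ± 0.17 (adjusted p = 0.0486), while its other probe sets gave -0.11 and -0.07.

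The 11 calls differed in how much they rested on single arrays. CHGB and C7 passed the threshold in all 9 fits that left out 1 array. CDCA8 and FNDC4 were lost only without 48 h replicate 2, with adjusted p of 0.0641 and 0.0754 (limma). PTPRO passed in 5 of the 9 fits (highest adjusted p 0.112), KCTD12 and FAM30A in 4 (0.24 and 0.16), SLC6A2 in 3 (0.222), and DBT, SH2D2A and SLC35E1 in 2 (0.31, 0.367 and 0.31). The number of genes called was 4 without 24 h replicate 1, 24 h replicate 2 or 48 h replicate 2, 5 without 48 h replicate 3, and 6 without 24 h replicate 3 or 48 h replicate 1. It was 17 without 3 h replicate 2. All 11 genes kept their direction under every alternative in which they were tested, 22 or 23 each. With scaling to the hybridisation spike-ins, whose signal ran from 18010 to 39515 on the 24 h arrays, limma called 0 genes and 86 had an unadjusted p under 0.05.

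Of the 251 genes that changed between 3 and 24 h, 10 changed back, in the sense that they passed the threshold in both intervals in opposite directions. These were 6 of the 158 genes that had risen (CHGB, PTPRO, FAM30A, DBT, SH2D2A and SLC35E1) and 4 of the 93 that had fallen (C7, FNDC4, CDCA8 and KCTD12). Both comparisons use the same 24 h arrays with opposite sign, so a 24 h array that deviates moves both. In the comparison whose difference does not use those arrays, 48 h against 3 h, limma called 8 genes (0.111%), 6 higher (0.0836%) and 2 lower (0.0279%), and 0 of the 10 returned genes were among them. Its estimate of the spread still uses the 24 h arrays, and it called 3 genes without 24 h replicate 3 and 2 to 117 over the 9 fits without 1 array. With so few genes called there, the absence of the 10 does not show that they reached their 3 h level. The net log2 change of the 10 lay between -0.83 (KCTD12) and 0.37 (C7), and for both of these genes the 48 h and 3 h arrays did not overlap. No gene passed the threshold in both intervals in the same direction. These counts rested on single arrays. Leaving out 1 array gave between 33 (without 24 h replicate 2) and 530 (without 3 h replicate 3) genes for the first interval and between 3 (without 48 h replicate 2) and 14 (without 3 h replicate 2) returned genes. For 48 h against 3 h it gave between 2 (without 48 h replicate 1) and 117 (without 3 h replicate 2) genes.

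Of the first interval genes, 235 were called in neither later comparison. For the 158 genes that had risen, the median log2 change was 0.99 in the first interval, -0.42 in the second and 0.55 over both. For the 93 that had fallen these medians were -0.78, 0.43 and -0.41. Among the risers, the 48 h arrays were all below the 24 h arrays for 96 genes and all above the 3 h arrays for 95, and for 40 genes they lay between, apart from both. Among the fallers the same counts, with directions turned, were 62, 57 and 30. Over all tested genes the 48 h arrays were all below the 24 h arrays for 12.7% and all above them for 9.58%. They were all above the 3 h arrays for 10.3% and all below them for 7.09%. The risers and fallers were chosen on the 3 and 24 h arrays, so their counts cannot be compared with the shares of all tested genes. The sign of their second change and their distance from the 3 h arrays are a description only.

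MYC and the ID genes, regulators of growth and differentiation, were among the early fallers. MYC had 1849, 1444 and 1334 at 3 h, 602, 452 and 646 at 24 h, and 1186, 1030 and 1056 at 48 h. Its 48 h arrays lay between the other times, and the second interval change of 0.94 ± 0.20 had a limma adjusted p of 0.115. ID1 stayed closer to its 24 h level, at 4744 ± 937, 2087 ± 160 and 2532 ± 377 (second change 0.27 ± 0.17, adjusted p = 0.605). ID2 had a second change of 0.53 ± 0.16 (adjusted p = 0.303) and ID3 of 0.49 ± 0.24 (adjusted p = 0.515). SNHG32, a small nucleolar RNA host gene, fell from 8109 ± 2219 to 3320 ± 342 in the first interval and was at 6487 ± 409 at 48 h. Its second change of 0.97 ± 0.19 missed the threshold with an adjusted p of 0.0859.

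Genes that kept their first change numbered 6, called in the first interval and at 48 h against 3 h in the same direction. Both comparisons use the same 3 h arrays with the same sign, so a 3 h array that deviates moves both. SCD5, a fatty acid desaturase gene, had 1018, 1453 and 1336 at 3 h, 5132, 5544 and 3244 at 24 h, and 3813, 5362 and 4566 at 48 h. All later arrays were above the 3 h arrays, and 24 and 48 h overlapped (second change 0.01 ± 0.21). TCTN2, a gene of the ciliary transition zone whose probe set can also bind related transcripts, went from 957 ± 62.7 to 2566 ± 238 and 3256 ± 390, with a net log2 change of 1.74 ± 0.15 (adjusted p = 1.14e-04, limma). DDIT4, an inhibitor of mTORC1 signalling, had a net change of 1.27 ± 0.17 (adjusted p = 0.00614). ORAI3, a store-operated calcium channel gene, had one of 1.07 ± 0.19 (adjusted p = 0.0492). The 2 genes that stayed low were PBX2, a homeobox cofactor gene, at -0.98 ± 0.17 (adjusted p = 0.0421), and APP, the amyloid precursor protein gene. APP had 6117, 6691 and 9636 at 3 h, 3473, 4862 and 3829 at 24 h, and 2540, 3441 and 3349 at 48 h. Its net change was -1.25 ± 0.20 (adjusted p = 0.028), but of its 2 other probe sets 1 moved the other way in the first interval, at 0.42. The 3 other probe sets of PBX2 did not show its first interval fall, with changes of -0.01, 0.59 and 0.29. In the 9 fits without 1 array, SCD5 and TCTN2 passed in both comparisons every time and DDIT4 in 8, the exception being 48 h replicate 1 (adjusted p = 0.0579 for 48 h against 3 h, limma). APP, PBX2 and ORAI3 did so in 1 of the 9 each. APP lost its 48 h against 3 h call without 3 h replicate 3, 24 h replicate 3 or any 48 h replicate (highest adjusted p 0.141). PBX2 and ORAI3 lost theirs without any array other than 3 h replicate 2 (highest adjusted p 0.324 and 0.42).

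**Figure D3:**
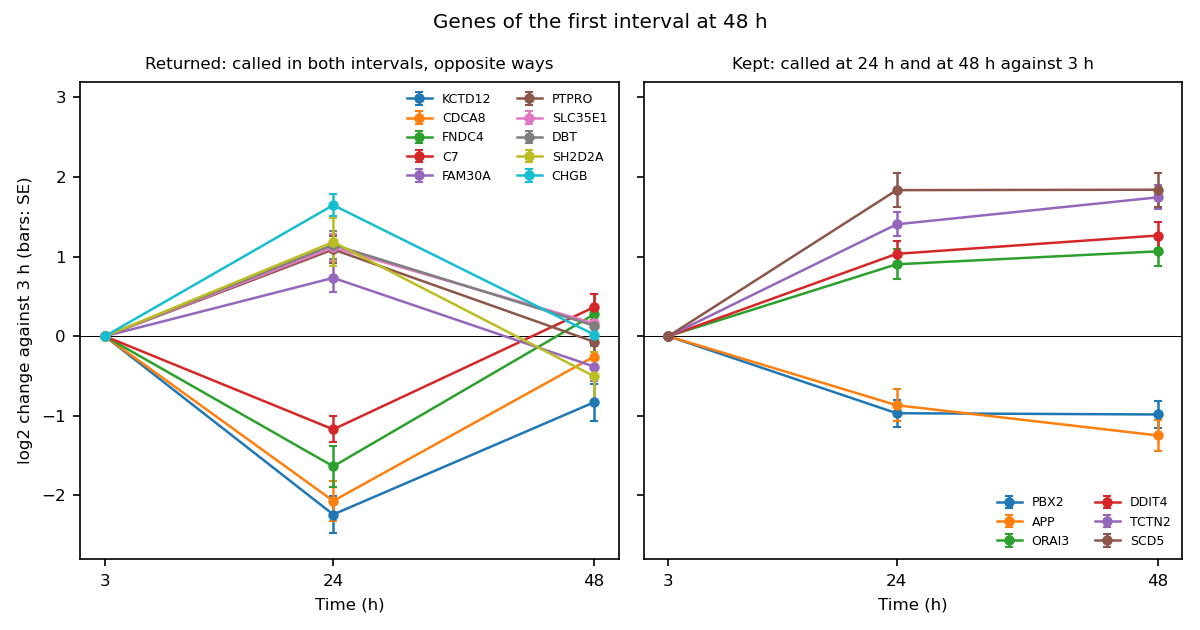
Log2 change against the 3 h arrays (vertical axis, bars are SE) at 24 and 48 h (horizontal axis) for the 10 returned genes on the left and the 6 kept genes on the right. The returned genes lie between -0.83 and 0.37 at 48 h, while the kept genes stay between 0.90 and 1.84 or between -0.87 and -1.25 at both later times.

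Among the gene lists, called members in the second interval were found in 3 of 39 lists. They were CHGB in the granins, SLC6A2 in the noradrenergic genes, and KCTD12 in the list of voltage-gated channels. KCTD12 stood in that list although it encodes a GABA-B receptor subunit and not a voltage-gated channel. No other list had a called member, so the medians and counts of non-overlapping arrays that follow describe sizes and carry no call. They stand beside a median of -0.03 over all tested genes, of which 9.58% were higher and 12.7% lower with non-overlapping arrays and 10.3% had an unadjusted p under 0.05. In the first interval 25 of the lists had a called member, where 3.5% of all tested genes were called, against 0.153% in the second. The difference between these counts of lists was not tested.

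Genes of mitosis and the G2/M phase had a median change of 0.30 over 40 tested genes. Of these, 13 were higher at 48 h with non-overlapping arrays and 0 lower, where 9.58% and 12.7% of all tested genes were. An unadjusted limma p under 0.05 was found for 10 of the 40, against 10.3% of all tested genes. The medians over alternatives were 0.26 to 0.46, the highest with arrays centred on the median, where all tested genes had 0.12. On the single arrays the list's median level, relative to each gene's mean, was -0.23 to -0.15 at 24 h, 0.02 to 0.18 at 48 h and 0.03 to 0.22 at 3 h. The 24 h arrays were the lowest, and the 3 and 48 h arrays overlapped. DLGAP5, a spindle gene, had a change of 0.59 ± 0.20 (limma adjusted p = 0.358), KIF20A, a mitotic kinesin gene, of 0.48 ± 0.17 (adjusted p = 0.367) and CDK1, the mitotic kinase gene, of 0.43 ± 0.18 (adjusted p = 0.422). BUB3, a spindle checkpoint gene, was the list's 1 called member in the first interval, a fall of 0.57 ± 0.14, and had 0.39 ± 0.14 in the second (adjusted p = 0.363). MKI67, the proliferation marker gene, was at 1440 ± 122 and 1927 ± 352, with overlapping arrays, and 1 of its 3 other probe sets had the opposite sign, at -0.24.

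Genes of DNA replication had a median of -0.04 over 39 genes, near the -0.03 of all tested genes. Of these, 1 was higher and 6 lower with non-overlapping arrays, against 9.58% and 12.7% of all tested genes, and the difference from the mitosis list was not tested. MCM5, a subunit of the replicative helicase, had 2602, 2054 and 1750 at 3 h, 1875, 1311 and 1870 at 24 h, and 1094, 1128 and 862 at 48 h. Its 48 h arrays were the lowest of the 9, with a second interval change of -0.70 ± 0.20 (limma adjusted p = 0.28). RPA2, a single-strand DNA binding subunit, had -0.51 ± 0.17 (adjusted p = 0.336). With arrays centred on the median the list's median was 0.11, where that of all tested genes was 0.12.

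Differences among the lists of energy metabolism were not tested. Over 20 genes of glycolysis and glucose uptake the median was -0.02, which turned positive in 8 of the alternatives, and 6 were higher and 0 lower with non-overlapping arrays. Over 59 oxidative phosphorylation genes the median was 0.17, with 15 higher and 1 lower. Of all tested genes 9.58% were higher and 12.7% lower in this sense. The oxidative phosphorylation list's level was -0.13 to -0.07 on the 24 h arrays and 0.03 to 0.11 on the 48 h arrays. That of the glycolysis list was -0.04 to 0.02 at 24 h and 0.09 to 0.10 at 48 h, also without overlap. NDUFB5, a complex I subunit gene, had fallen in the first interval (-0.67 ± 0.15, limma adjusted p = 0.0344). Its signals were 3481, 3030 and 2522 at 24 h and 4894, 4764 and 4791 at 48 h, a change of 0.69 ± 0.15 with an adjusted p of 0.151. Over 26 genes of cholesterol and fatty acid synthesis the median was 0.18, with 8 higher and 0 lower. SC5D, a sterol desaturase gene, had 1032, 1090 and 800 at 24 h and 1590, 1616 and 1573 at 48 h (0.71 ± 0.18, adjusted p = 0.213). SQLE, the squalene epoxidase gene, had fallen in the first interval and was at -0.04 ± 0.18 in the second. Over 51 cytosolic ribosomal protein genes the median was 0.26, with 19 higher and 0 lower, but the list's level overlapped between times, at -0.28 to -0.05 at 24 h and -0.08 to 0.25 at 48 h. The medians over the alternatives were 0.10 to 0.33 for oxidative phosphorylation, 0.06 to 0.34 for lipid synthesis and 0.11 to 0.41 for ribosomal proteins. In each list the highest came with arrays centred on the median, where all tested genes had 0.12.

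Genes of the secretory protein folding machinery had a median of -0.19 over 19 tested genes of endoplasmic reticulum chaperones and the unfolded protein response. Of these, 8 were lower and 1 higher with non-overlapping arrays, against 12.7% and 9.58% of all tested genes. The list's level was 0.02 to 0.12 on the 24 h arrays and -0.20 to -0.11 on the 48 h arrays, below the 3 h arrays as well (-0.03 to 0.11). HSPA5, the gene of the chaperone BiP, had 10690, 6655 and 6290 at 24 h and 4546, 4586 and 5278 at 48 h (-0.67 ± 0.20, limma adjusted p = 0.293). SDF2L1 had -0.47 ± 0.17 (adjusted p = 0.368) and HYOU1 -0.38 ± 0.15 (adjusted p = 0.412). Genes of nuclear speckles, where splicing factors are stored, had a median of -0.21 over 23 genes, with 8 lower and 1 higher by the same measure. ARGLU1 had 2224, 2359 and 2483 at 24 h and 1183, 1473 and 1527 at 48 h, a change of -0.76 ± 0.19 (adjusted p = 0.21) after a called first interval rise of 1.02 ± 0.19. CCNL2, a cyclin L gene, had -0.61 ± 0.18 (adjusted p = 0.292) after a called rise of 1.23 ± 0.18. The medians over the alternatives were -0.30 to -0.04 for the chaperones and -0.25 to -0.05 for the speckle genes. The highest of each came with arrays centred on the median, where all tested genes had 0.12.

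**Figure D4:**
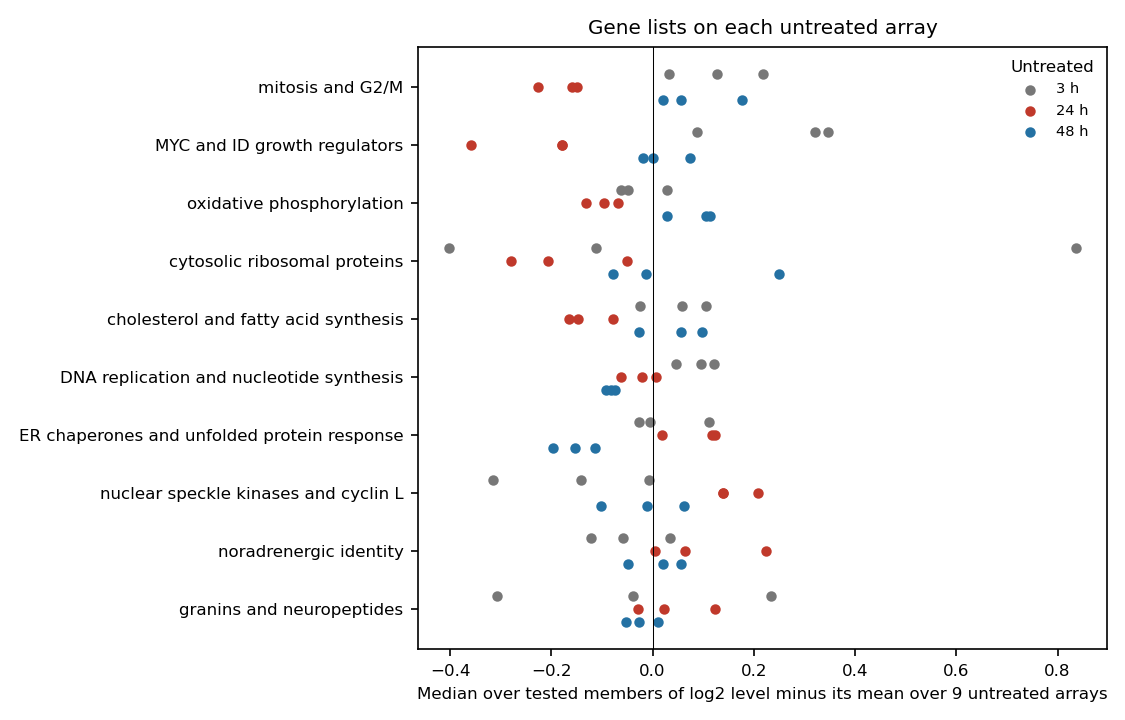
Level of 10 gene lists on each of the 9 untreated arrays, as the median over tested members of the log2 level minus the gene's mean over the 9 arrays (horizontal axis, log2 units); points are arrays, coloured by time. For mitosis the 24 h arrays lie at -0.23 to -0.15 and the 48 h arrays at 0.02 to 0.18, and for chaperones at 0.02 to 0.12 and -0.20 to -0.11.

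Many genes of neurotransmission lay below the level filter. The cholinergic list, with nicotinic and muscarinic receptors and esterases, had a median of -0.15 over the 15 of 24 genes tested, with 2 higher and 2 lower with non-overlapping arrays, shares near the 9.58% and 12.7% of all tested genes. BCHE, the butyrylcholinesterase gene, had 1372, 1560 and 1619 at 24 h and 2038, 2302 and 2224 at 48 h (0.53 ± 0.16, limma adjusted p = 0.315). CHRNA3, the α3 nicotinic receptor subunit gene, was at 12811 ± 1357 and 10964 ± 497 (-0.22 ± 0.21, adjusted p = 0.722). ACHE, the acetylcholinesterase gene, lay below the level filter, at 149 ± 93.3 and 243 ± 134 (adjusted p = 0.729 among all genes). Of 33 genes of the voltage-gated channel list, which also holds KCTD12, 10 were tested, with a median of -0.31. Of 27 glutamate and GABA genes 10 were tested, with a median of -0.29. The 23 tested calcium signalling genes had a median of -0.16. Over all tested genes the change went with the level. When they were split into 5 groups of equal size by mean level, the median change from 24 to 48 h was -0.19 in the lowest group, -0.11, -0.06 and 0.02 in the next, and 0.09 in the highest. In the first interval the same medians were 0.38, 0.24, 0.11, -0.02 and -0.17. The part of level in the medians of the lists was not tested.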

How the data were processed

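The series measured RNA of SH-SY5Y cells on 18 arrays, of which the 9 untreated arrays were fitted. The deposited intensity is a linear MAS5 signal, per the submitters' processing notes. The sources used here give neither the version nor the scaling target. The mean signal after trimming 2% at each end was 800.1 to 800.3 on all 18 arrays, so the authors' values share a scale. The array's annotation gives 19065 of 22283 probe sets 1 gene symbol, 1043 several and 2107 none; 68 are controls. Only those with 1 symbol were used, and 19053 matched a RefSeq table of GRCh38.p14, which changed 0 symbols. A gene (11963 in all) was read from its probe set of highest mean over the 9 arrays, and the upper 60% by mean over the 9 arrays (a log2 level of 8.43 or more, a signal of 329) gave 7178 genes tested.

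Deposited intensity was analysed as log2(signal + 16) with limma 3.58.1 (R 4.3.3; lmFit, then eBayes with trend; residual degrees of freedom 6, prior 8.03). The 3 group means shared 1 spread; the sarin arrays were left out and entered only in alternatives. Tests were two-sided with Benjamini-Hochberg adjustment over all tested genes and a threshold of 0.05. An exact permutation test of 3 against 3 arrays cannot go below a p of 0.1 and was not used. Genes below the filter that are named carry the adjusted p of a fit without it. The fit was tested on simulated data. The number of arrays limits the precision.

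Genes named are those past the threshold, returned, kept and late genes, up to 6 members of each of the 39 lists with the smallest p, 16 marker and control genes, and 3 genes nearest the threshold on each side. Not all are named. The comparison, the members and the lists were chosen with earlier results of these data known. Lists are described by counts and medians, without a test. Promoters came from a RefSeq table (GRCh38.p14) that held 8 of the 11 called genes.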

Additional observations from a re-analysis of the deposited data

How the results depend on the processing

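All 11 called genes kept their direction under every alternative in which they were tested, 22 or 23 each. For 48 h against 24 h (11 genes called), the count was 5 without a level filter, 23 with quantile normalization, 7 with arrays centred on the median, 7 with the mean over a gene's probe sets and 4 without a trend. It was 25 with the 6 arrays compared, 29 with all 18 arrays, 41 with 15 arrays, 152 with array weights, 0 with spike-in scaling (86 at an unadjusted p under 0.05, limma), and 4 to 17 when 1 array was left out. For 24 h against 3 h (251), it was 160 without a filter, 1125 centred (63 higher, 1062 lower), 759 with spike-in scaling (1 higher, 758 lower), 53 with 6 arrays, 670 with 15 arrays, 841 with array weights, and 33 (without 24 h replicate 2) to 530 (without 3 h replicate 3) when 1 array was left out. For 48 h against 3 h (8), it was 3 without a filter, 21 with the upper 40% by level, 5 with quantile normalization, 17 centred (4 higher, 13 lower), 184 with spike-in scaling (0 higher, 184 lower), 3 with 6 arrays, 27 with 18, 41 with 15, 4 without a trend, 190 with array weights, and 2 (without 48 h replicate 1) to 117 (without 3 h replicate 2) when 1 array was left out. Returned genes (10) numbered 5 without a filter, 0 with spike-in scaling, 21 with 18 arrays, 27 with 15, 4 without a trend, 78 with array weights, and 3 (without 48 h replicate 2) to 14 (without 3 h replicate 2) when 1 array was left out. The causes were not tested. With a replicate block, 8 genes were called for 48 h against 24 h, 373 for 24 h against 3 h, 8 for 48 h against 3 h, and 8 returned. Same-numbered arrays at 24 and 48 h deviated together at r of 0.23, 0.07 and -0.07, and 2 of these 6 arrays correlated best with their own number at the other time. The r was 0.23, 0.11 and -0.13 between 3 and 24 h and 0.27, 0.30 and -0.01 between 3 and 48 h. Not every pair passed 0.1, so the numbers were not taken as a pairing. Of the list medians, 787 values over 39 lists moved by less than the spread between arrays and 109 by more. Genes near background limit what low signals can show, and 3 arrays per time limit every count.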

Other observations

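Genes induced by low oxygen or starvation were among those that changed in the first interval. ANGPTL4, a regulator of lipoprotein lipase, went from 255 ± 70.8 (SD, n = 3) at 3 h to 965 ± 298 at 24 h and 492 ± 194 at 48 h, with a second interval log2 change of -0.97 ± 0.33 (limma adjusted p = 0.358). WSB1, a ubiquitin ligase adapter gene, had 2796, 3249 and 3346 at 24 h and 1355, 2049 and 2066 at 48 h (-0.80 ± 0.24, adjusted p = 0.301). EPAS1, which encodes the oxygen-regulated factor HIF-2α, moved the other way, at 4695 ± 962, 2209 ± 123 and 3633 ± 857 at 3, 24 and 48 h (second change 0.69 ± 0.19, adjusted p = 0.265). Of the 22 tested genes of the list, 0 were called in the second interval, and the median was 0.08. Among 30 ATF4 and amino acid stress genes the median was -0.14. The amino acid transporter genes SLC7A5 and SLC38A2 had second interval changes of -0.69 ± 0.21 (adjusted p = 0.315) and 0.64 ± 0.19 (adjusted p = 0.292), each opposite to its called first change. MTHFD2, a mitochondrial folate enzyme gene, stayed near its 24 h level, at 1856 ± 70.6, 3670 ± 371 and 3025 ± 86.3.

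Matrix genes had a median of 0.02 over 34 tested genes. COL3A1, a fibrillar collagen gene, had 2679, 2658 and 3459 at 24 h and 3928, 4791 and 4192 at 48 h (0.56 ± 0.16, adjusted p = 0.28, limma), and IGFBP5, an insulin-like growth factor binding protein gene, was at 572 ± 22.2 and 1057 ± 120 (0.86 ± 0.20, adjusted p = 0.191), although 3 of its 4 other probe sets had the opposite sign. COL18A1, the gene of collagen XVIII, had 637, 516 and 610 against 193, 362 and 417 (-0.89 ± 0.30, adjusted p = 0.358). LAMA4, a laminin gene, was at -0.51 ± 0.28 and COL4A1, a basement membrane collagen gene, at -0.47 ± 0.25, both with overlapping arrays. VIM, the vimentin gene, was at 23806 ± 1504 and 30992 ± 8287.

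On the 3 arrays of cells given sarin for 24 h, which the main comparisons do not use, CHGB had a signal of 5589 to 6070, between its untreated 24 h and 48 h arrays. C7 had 554 to 669, below its untreated 24 h arrays. KCTD12 had 688 to 915, PTPRO 6503 to 7398, SLC6A2 3326 to 3911 and FAM30A 1762 to 1881, which all overlapped their untreated 24 h arrays. SH2D2A had 366 to 478 and DBT 2174 to 2730, both below the untreated 24 h arrays. CDCA8 spread from 518 to 1756, above its untreated 24 h arrays of 259 to 514. Of the genes that kept their first change in untreated cells, TCTN2 had 1022 to 1195, ORAI3 516 to 670 and SCD5 2223 to 2987. All of these were below the untreated 24 h arrays, while APP, DDIT4 and PBX2 overlapped theirs.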
